A study of Mus musculus with 10 samples.

Results

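Immediate early genes were followed by single-cell RNA sequencing in 10 mouse embryos, from cortex taken at E16.5. The set consisted of 10 named genes (Fos, Fosb, Jun, Junb, Egr1, Ier2, Npas4, Arc, Nr4a1 and Dusp1) among the 31053 features of each count matrix. They were taken by name, and each was found in the matrices. The groups were 3 WT embryos (Gatad2b +/+), 4 Het embryos (Gatad2b stop/+) and 3 KO embryos (Gatad2b stop/stop), with 1 library per embryo. The stop allele, Gatad2b tm1a(EUCOMM)Hmgu, is a germline gene-trap cassette on a C57BL/6N-A tm1Brd background, so it was carried by all cells of a mutant embryo and not by a chosen cell type. Gatad2b encodes a subunit of the NuRD complex, which joins nucleosome remodelling to histone deacetylation. For each embryo the whole cortex was digested with warm papain, broken up with a pipette and loaded on the 10X Genomics Chromium platform. The study describes the Het and WT samples as littermates, but which embryos shared a litter or a dissociation day was not given in the sources used here.

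Immediate early genes are transcribed within minutes of a stimulus, without any need for newly made protein. In neurons, calcium entry and growth factor signalling reach them through CREB at cyclic AMP response elements and through SRF with its partner factors at serum response elements. Fos, Fosb, Jun and Junb encode subunits of the AP-1 transcription factor. Egr1 is a zinc finger factor, Npas4 a neuronal factor tied to calcium entry, Nr4a1 an orphan nuclear receptor and Ier2 a small nuclear protein. Arc acts at synapses, and Dusp1 removes phosphate from MAP kinases and so dampens the pathway that switched it on. Warm enzymatic digestion of tissue is itself known to raise the same genes, which is why levels are set here beside the library groups as well as beside genotype.

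All 10 genes are annotated as protein coding, and 9 are placed here. In GRCm38 (GENCODE vM21) Fos lies at chr12:85473890-85477273 on the plus strand, Fosb at chr7:19302696-19310051, Jun at chr4:95049034-95052222, Junb at chr8:84974484-84978718 and Ier2 at chr8:84661331-84662852, the last 4 on the minus strand. Npas4 lies at chr19:4984355-4990316, Arc at chr15:74669083-74672570 and Dusp1 at chr17:26505590-26562128, each on the minus strand, Nr4a1 lies at chr15:101254269-101274795 on the plus strand. RefSeq upstream sequence (GRCm38.p6) was at hand for 7 of the 10 genes, not for Egr1, Ier2 or Arc. The 250 bases before each start were searched on both strands for the cyclic AMP response element TGACGTCA, for its 6-base core TGACGT (which also lies inside the full element), for the AP-1 site TGANTCA, for TATAAA and for the serum response factor site known as the CArG box. Fos and Dusp1 are printed because they rose in both mutant groups over all cells and because their matches differ.
Fos: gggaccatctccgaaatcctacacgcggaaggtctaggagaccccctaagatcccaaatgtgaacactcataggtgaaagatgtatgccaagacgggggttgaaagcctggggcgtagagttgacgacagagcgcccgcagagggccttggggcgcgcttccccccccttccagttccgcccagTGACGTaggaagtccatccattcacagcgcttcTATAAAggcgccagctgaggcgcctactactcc
Dusp1: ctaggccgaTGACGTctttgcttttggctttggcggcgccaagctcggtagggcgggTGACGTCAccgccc
The Fos sequence is chr12:85473640-85473889 (plus strand), and the Dusp1 sequence is chr17:26508602-26508672 (minus strand), from base -200 to base -130 before the start. Starts here are those of RefSeq. That of Dusp1 lies inside the GENCODE span given above, so the printed stretch falls within that span. The same holds for the windows of Nr4a1 and Npas4, and in part for that of Fosb. Capitals mark the TGACGT core and the TATAAA match in Fos, at -66 to -61 and -33 to -28, and in Dusp1 a TGACGT core at -191 to -186 and a full TGACGTCA at -143 to -136. Npas4 held 2 cores, at -180 to -175 and -169 to -164. Among 32851 RefSeq promoters the same window held the full element in 1.55%, the core in 6.47%, TATAAA in 12.4%, the AP-1 site in 6.75% and the CArG box in 1.47%. Neither of the last 2 was found in any of the 7 windows. These are matches of letters in a short window, and the known serum response element of Fos, for one, lies further upstream than the window reaches.

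Of 80071 barcodes, 65779 had at least 1000 UMIs (unique molecular identifiers, 1 per captured RNA molecule) and at most 10% mitochondrial UMIs, 5147 to 8103 per embryo, and they carried 82872641 to 123737385 UMIs per embryo. The libraries fell under 2 name prefixes, whose meaning was not given in the sources used here. WT replicates 1 to 3 and Het replicate 4 shared one prefix, named the WT prefix below, and Het replicates 1 to 3 and KO replicates 1 to 3 shared the other, the KO prefix. KO and WT embryos therefore differed in prefix as well as in genotype, and Het replicate 4 was the 1 embryo that broke that link. The median share of mitochondrial UMIs was 3.6% to 3.97% in the embryos of the WT prefix and 4.31% to 4.66% in those of the KO prefix. At most 0.325% of the barcodes of any library were shared with another. Gatad2b itself followed the labels: its level was 134.5 ± 4.35 CPM (UMI counts scaled to a common library total, mean ± SD) in WT, 92.4 ± 2.97 CPM in Het and 53.7 ± 3.28 CPM in KO, with Het replicate 4 at 95.7 CPM. Its log2 fold change was -0.54 in Het and -1.33 in KO against WT.

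Cells were clustered without the 10 genes and named from markers, which gave 12 classes and 8028 cells without a name. Besides the glutamatergic neurons, progenitors and interneurons of the cortex, 6980 striatal inhibitory-like cells were present, a cell type of the neighbouring ganglionic eminence territory. Cell cycle and histone genes led the ganglionic eminence-like class, and S100a8 and S100a9 of the granulocyte lineage were among the leading genes of the microglia-like class. Olig1 of the oligodendrocyte lineage was among those of the radial glia-like class. That class scored higher for oligodendrocyte precursors (4.00) than for radial glia (3.18) and was named by its leading genes. In a finer clustering (resolution 0.8), 183 cells formed an oligodendrocyte precursor-like cluster. The pericyte and fibroblast-like class, led by Rgs5 and Vtn, scored 4.79 for its own name and 3.22 for endothelial cells. At the finer resolution, 133 cells under this name, with a median of 56632 UMIs, scored highest for endothelial cells (4.02). The endothelial-like class had fewer than 20 cells in some embryos and was not tested, and 342 of its 606 cells came from Het replicate 3. Its values are given for the WT embryos, as levels.

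In the WT cortex Fos and Jun stood highest in microglia-like, vessel-associated and radial glia-like cells and lower in the layer neurons, Cajal-Retzius-like and erythroid-like cells. Fos was at 663 ± 236 CPM in microglia-like cells (mean ± SD, n = 3 embryos) and at 320 ± 174 CPM in pericyte and fibroblast-like cells, and these groups overlapped. Next came radial glia-like cells at 150 ± 15.5 CPM, endothelial-like cells at 101 ± 69.0 CPM, ganglionic eminence-like cells at 71.2 ± 13.9 CPM and subventricular zone-like cells at 56.4 ± 5.85 CPM, where each overlapped the next. Interneuron-like cells at 42.4 ± 6.22 CPM overlapped striatal inhibitory-like cells at 32.6 ± 5.60 CPM. Cajal-Retzius-like cells at 20.7 ± 6.12 CPM overlapped layer II-IV-like neurons at 19.4 ± 3.66 CPM. Layer V-VI-like neurons, at 14.0 ± 2.69 CPM, fell just short of overlapping layer II-IV-like neurons but overlapped Cajal-Retzius-like cells. Erythroid-like cells, the class taken here as background, had 3.75 ± 3.04 CPM and did not overlap any other.

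Jun had much the same order. It stood at 794 ± 192 CPM in microglia-like, 634 ± 72.9 CPM in pericyte and fibroblast-like, 430 ± 145 CPM in endothelial-like and 404 ± 51.7 CPM in radial glia-like cells, 4 neighbours that overlapped in turn. It was at 199 ± 8.79 CPM in ganglionic eminence-like cells and 152 ± 4.58 CPM in striatal inhibitory-like cells, without overlap. Interneuron-like, subventricular zone-like and layer II-IV-like cells overlapped at 102 ± 9.96, 96.4 ± 22.4 and 90.8 ± 10.4 CPM. Layer V-VI-like neurons at 68.3 ± 4.50 CPM, Cajal-Retzius-like cells at 56.7 ± 2.93 CPM and erythroid-like cells at 11.3 ± 2.5 CPM did not overlap their neighbours.

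All of the other members but Npas4 and Arc also had their highest means in the microglia-like or the pericyte and fibroblast-like class, and differed in the neural classes. Junb, the AP-1 subunit that often opposes Jun, was at 396 ± 143 CPM in microglia-like cells and at 20.5 ± 0.795 CPM in radial glia-like cells. In layer V-VI-like neurons it was at 13 ± 2.52 CPM, without overlap against 6.79 ± 0.267 CPM in layer II-IV-like cells, and in subventricular zone-like progenitors at 5.51 ± 1.49 CPM. Egr1 was at 310 ± 227 CPM in microglia-like and 118 ± 51.3 CPM in pericyte and fibroblast-like cells, at 117 ± 15.9 CPM in radial glia-like and 109 ± 51.5 CPM in ganglionic eminence-like cells, and at far lower levels in layer II-IV-like neurons at 2.24 ± 0.465 CPM and layer V-VI-like neurons at 2.16 ± 0.881 CPM, values that overlapped. Dusp1 had a fairly even mean level over the neural classes, from 19.1 ± 3.66 CPM in radial glia-like to 42.3 ± 2.13 CPM in striatal inhibitory-like cells. Nr4a1 reached 24.9 ± 8.74 CPM in pericyte and fibroblast-like cells and stayed between 0.673 and 4.50 CPM in the neural classes.

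Npas4 and Arc had few UMIs. Npas4, which is known from neurons, was highest in striatal inhibitory-like cells at 3.49 ± 0.196 CPM, above layer V-VI-like cells at 1.68 ± 0.521 CPM and layer II-IV-like cells at 1.67 ± 0.505 CPM. It had no UMI in the microglia-like, pericyte and fibroblast-like, endothelial-like or erythroid-like cells of WT embryos. The smallest of those classes gave 0 of 116 cells, which allows a share of up to 2.59%, and the largest gave 0 of 620 cells, which allows up to 0.484% (limits on cells with a UMI, counting error only). At the layer II-IV-like level, 1.71 Npas4 UMIs would fall in the microglia-like cells, 3.23 in the endothelial-like, 5.83 in the pericyte and fibroblast-like and 8.70 in the erythroid-like cells, so the counts of 0 say little for the first of these. Arc had no UMI in the same 4 classes, where its layer II-IV-like level would give less than 1 UMI each, and was highest in radial glia-like cells at 5.43 ± 3.90 CPM, where the WT embryos ranged from 1.24 to 8.96 CPM. All WT cells together held 156 Arc UMIs, the fewest of the set, so its values carry a large counting error.

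**Figure D1:**
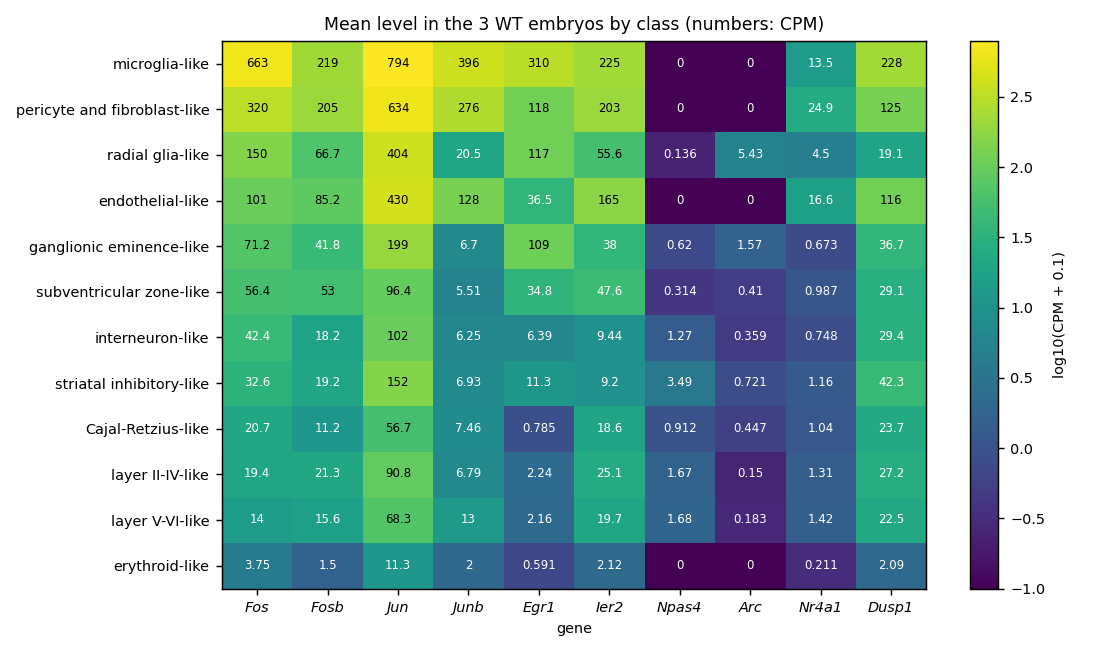
Mean level of each gene in the 3 WT embryos, by class, as CPM from UMI counts summed per embryo and class (numbers, in CPM; colour, log10 of CPM plus 0.1). Fos runs from 663 CPM in microglia-like to 3.75 CPM in erythroid-like cells, while Npas4 is highest in striatal inhibitory-like cells at 3.49 CPM and 0 in the 4 non-neural classes.

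As a description, the genes whose WT levels ran most alike with Fos over 11 classes were Elf1 (Pearson r = 0.977 on the log2 of CPM plus 1), Ripk1 (0.977) and B4galt1 (0.976), out of 12157 genes. For Jun they were Bak1 (0.974), Rhoa (0.973) and Mob1a (0.969). Within the set, Fosb (0.964) and Jun (0.962) ran most like Fos, and Nr4a1 (0.842) least among the 7 members compared. Every class pools cells of the same 3 libraries, so these points are not independent and carry no p.

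The first comparison asked whether immediate early transcripts differed between genotypes over all cells. UMIs were summed per embryo, scaled by TMM to CPM and tested with edgeR's quasi-likelihood test over 17647 genes, and a gene was called at a Benjamini-Hochberg adjusted p under 0.05 with a log2 fold change beyond 0.25. Over sums of all cells, a change in the mixture of cell types and a change in RNA per cell cannot be told apart. Against WT, 4 of the 10 members rose in Het (Fos, Jun, Ier2 and Dusp1), where 2.98% of all genes were called and 1.58% rose. In KO 7 of 10 rose (Fos, Fosb, Jun, Junb, Ier2, Arc and Dusp1), where 24.5% of all genes were called and 12% rose. None fell in either comparison. The median log2 fold change of the 10 was 0.51 in Het and 0.66 in KO, beside 5e-04 and -0.0055 over all genes.

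Fos, the inducible AP-1 subunit, stood at 45.3, 31.1 and 33.4 CPM in the WT embryos, at 105, 119, 101 and 40.2 CPM in Het replicates 1 to 4 and at 99.1, 99.4 and 129 CPM in the KO embryos. All KO embryos and Het replicates 1 to 3 lay above every WT embryo, and Het replicate 4 lay among the WT embryos. Against WT its log2 fold change was 1.32 in Het (SE 0.30, adjusted p = 0.0389) and 1.58 in KO (SE 0.31, adjusted p = 0.00302).

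Fosb, its close relative, stood at 26.2, 23.7 and 25.0 CPM in WT, at 52.7, 64.8, 54.6 and 20.7 CPM in Het and at 45.3, 51.1 and 59.3 CPM in KO. Het replicate 4 was the lowest of the 10 embryos. The log2 fold change was 1.05 in KO (SE 0.30, adjusted p = 0.0182), and in Het it was 0.94 (SE 0.28, adjusted p = 0.0721), short of the threshold.

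Jun, the partner of the Fos proteins in AP-1, stood at 118, 108 and 113 CPM in WT, at 172, 158, 158 and 117 CPM in Het and at 188, 177 and 173 CPM in KO. The KO embryos lay above all Het and all WT embryos, with Het replicate 4 inside the WT range. For Jun the test gave a log2 fold change of 0.42 in Het (SE 0.10, adjusted p = 0.0438) and 0.67 in KO (SE 0.11, adjusted p = 9.73e-04).

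Junb stood at 15.7, 11.8 and 11.8 CPM in WT, at 22.8, 25.4, 25.2 and 11.4 CPM in Het and at 20.6, 21.4 and 20.1 CPM in KO. Het replicates 1 to 3 were the highest embryos, above KO, and Het replicate 4 the lowest. In KO the log2 fold change was 0.66 (SE 0.24, adjusted p = 0.0488), and it was 0.69 in Het (SE 0.22, adjusted p = 0.0873).

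Ier2, the small nuclear protein gene, stood at 30.8, 23.1 and 25.4 CPM in WT, at 41.4, 41.4, 40.1 and 28.7 CPM in Het and at 45.6, 47.2 and 46.4 CPM in KO. KO embryos lay above all Het embryos, which apart from replicate 4 lay above all WT embryos. Its log2 fold change was 0.52 in Het (SE 0.12, adjusted p = 0.0433) and 0.81 in KO (SE 0.13, adjusted p = 9.6e-04).

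Dusp1, the MAP kinase phosphatase, stood at 31.3, 27.5 and 27.6 CPM in WT, at 44.0, 44.8, 43.1 and 31.0 CPM in Het and at 44.5, 47.4 and 48.7 CPM in KO. Het replicate 4 again lay with the WT embryos. The log2 fold change was 0.50 in Het (SE 0.11, adjusted p = 0.0360) and 0.70 in KO (SE 0.12, adjusted p = 0.00107).

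Arc, the synaptic regulator, was at the edge of detection, with 0.589, 0.384 and 0.451 CPM in WT, 0.614, 0.503, 0.435 and 0.344 CPM in Het and 0.714, 0.689 and 0.83 CPM in KO. The KO embryos lay above all others. The log2 fold change was 0.65 in KO (SE 0.23, adjusted p = 0.0416) and -0.01 in Het (SE 0.22, adjusted p = 0.982).

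The remaining 3 factors did not pass the test in either mutant. Egr1 stood at 19.2, 11.4 and 12.8 CPM in WT, at 22.9, 27.9, 30.2 and 10.3 CPM in Het and at 18.7, 13 and 24.2 CPM in KO, with log2 fold changes of 0.65 (SE 0.33) in Het and 0.37 (SE 0.35) in KO. Npas4 ranged from 1.30 to 1.95 CPM in WT, 1.31 to 2.33 CPM in Het and 1.86 to 2.56 CPM in KO, and Nr4a1 from 1.47 to 1.89, 1.39 to 2.45 and 1.87 to 2.1 CPM. Their groups overlapped. The KO log2 fold changes were 0.41 (SE 0.22) for Npas4 and 0.21 (SE 0.18) for Nr4a1.

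**Figure D2:**
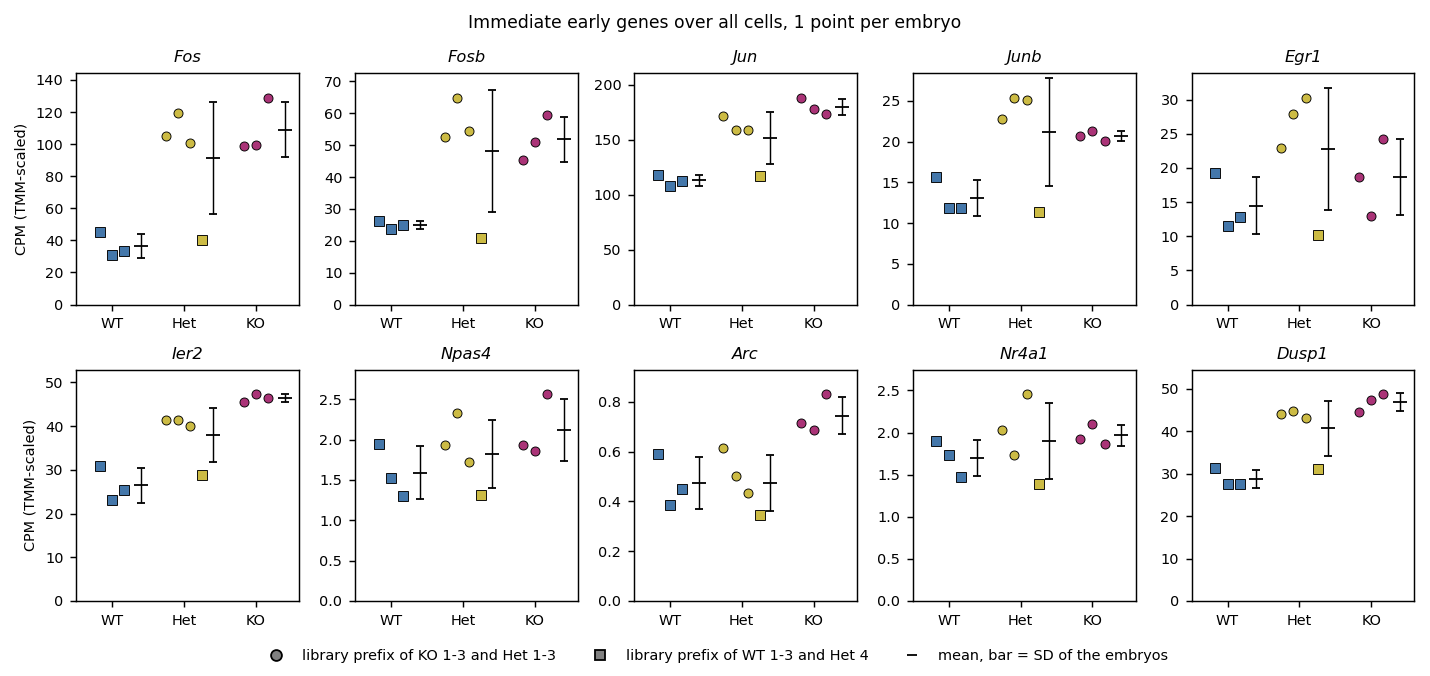
Level of each gene over all cells in every embryo, as TMM-scaled CPM, by group. Each point is 1 embryo, squares are the WT prefix and circles the KO prefix, and the bar is the mean ± SD. For Fos the 6 circles lie between 99.1 and 129 CPM and the 4 squares, Het replicate 4 among them, between 31.1 and 45.3 CPM.

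The calls depended on single libraries. Without WT replicate 2, without WT replicate 3 or without KO replicate 3, 4 members were called in KO against WT (Fos, Jun, Ier2 and Dusp1) in place of 7, where 21.6%, 20.2% and 21.7% of all genes were called. Without Het replicate 2, Het replicate 3, KO replicate 1 or KO replicate 2, these 4 and Fosb were called (24.1%, 24%, 21.2% and 19.2% of all genes). Without Het replicate 1, 6 were called, all but Junb (24.3%). In Het against WT the 4 adjusted p-values lay between 0.0360 and 0.0438. Leaving out any 1 embryo other than Het replicate 4, a KO embryo included, brought the count to 0, where 0.414% to 1.76% of all genes were called, and leaving out Het replicate 4 brought it to 7 (the 4 genes plus Fosb, Junb and Egr1), where 10.4% of all genes were called. In Het against WT the members' counts thus fell and rose with the calls over all genes. In KO against WT they did not follow them closely, since without WT replicate 1 all 7 stayed called where 21.8% of all genes were. When each class was given equal weight, which takes the proportions of the classes out of the sums, no member was called by limma in either comparison, with 7 and 6 of 10 at an unadjusted p under 0.05 in KO and Het. Of all genes 12.8% were still called in KO, and 0.051% in Het, where the fit called almost nothing. At either share 0 of 10 is an ordinary outcome, so neither count of 0 sets the members apart from all genes. For the unadjusted counts no share over all genes is given here. Most fold changes stayed near their size while the standard errors grew. In KO the log2 fold change of Fos was then 1.27 (SE 0.43, adjusted p = 0.0686), of Fosb 1.16 (SE 0.42), of Junb 0.87 (SE 0.31), of Dusp1 0.68 (SE 0.24), of Ier2 0.61 (SE 0.19), of Jun 0.58 (SE 0.20) and of Arc 0.19 (SE 0.11). In Het that of Fos was 1.16 (SE 0.41, adjusted p = 0.172), of Ier2 0.57 (SE 0.18), of Jun 0.54 (SE 0.19) and of Dusp1 0.54 (SE 0.22). Arc was the gene whose KO fold change moved most.

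KO against Het called 0 of 10 members by the same edgeR test, which called 5.5% of all genes. At an unadjusted p under 0.05 were 3 of 10 members (Arc, Jun and Ier2) and 3947 of all 17647 genes, shares near each other. DESeq2 also called 0 of the 10, where it called 6.86% of all genes. The groups of KO and WT embryos did not overlap, with KO higher, for 7 of 10 members (26.7% of all genes). The 6 embryos of the KO prefix lay above the 4 of the WT prefix for 6 of 10 (Fos, Fosb, Jun, Junb, Ier2 and Dusp1), against 11.8% of all genes.

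To set library prefix beside genotype, embryos were also compared within a prefix and the prefix was tested with group held. The comparison of Het replicate 4 with WT and the prefix term were added after the data had been seen. With 1 embryo in an arm, the comparison of Het replicate 4 with WT takes its spread from the WT embryos alone and called 0.0109% of all genes, and Gatad2b itself was not called. Its counts of calls (0 of 10 members, 1 with an unadjusted p under 0.05, Fosb at -0.27) therefore say nothing about the members, and its fold changes are given as values. The log2 fold changes of Het replicate 4 were 0.13 for Fos (SE 0.20), 0.05 for Jun (SE 0.06), 0.12 for Ier2 (SE 0.15) and 0.11 for Dusp1 (SE 0.08). Gatad2b in the same fit had a log2 fold change of -0.49 (SE 0.06, adjusted p = 0.163), beside -0.54 for all Het embryos.

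KO against Het replicates 1 to 3, all under the KO prefix, called 0 of 10 members, where 6.14% of all genes were called. At an unadjusted p under 0.05 were 5 members, a count for which no share over all genes is given here. Ier2 (log2 fold change 0.18, SE 0.03, adjusted p = 0.0125) and Junb (-0.24, SE 0.05, adjusted p = 0.02) passed the adjusted p but not the size of 0.25. Fos was at 0.01 (SE 0.10), Fosb at -0.14 (SE 0.10), Jun at 0.14 (SE 0.05) and Dusp1 at 0.09 (SE 0.04). Egr1 was at -0.53 (SE 0.18, adjusted p = 0.116) and Arc at 0.53 (SE 0.18, adjusted p = 0.109).

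The prefix term with group held called 7 of 10 members, all higher under the KO prefix, where 3.48% of all genes were called and 1.94% were higher. These were Fosb (log2 difference 1.47, SE 0.15), Fos (1.43, SE 0.22), Egr1 (1.40, SE 0.34), Junb (1.10, SE 0.14), Ier2 (0.51, SE 0.12), Dusp1 (0.50, SE 0.08) and Jun (0.48, SE 0.07), with adjusted p from 0.00258 for Fosb to 0.0472 for Egr1. Gatad2b had -0.07 (SE 0.07). With the prefix as a covariate, none of the 10 members was called by edgeR between KO and WT or between Het and WT, with 5 and 0 at an unadjusted p under 0.05. In the same fit 8.31% of all genes were called between KO and WT and 0.232% between Het and WT. At either share 0 of 10 is an ordinary outcome, so neither count of 0 sets the members apart from all genes. For the unadjusted counts no share over all genes is given here. That fit separates prefix from genotype through Het replicate 4 alone, so without it genotype and prefix cannot be told apart. What the prefix stands for, and the part of dissociation in it, was not tested.

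**Figure D3:**
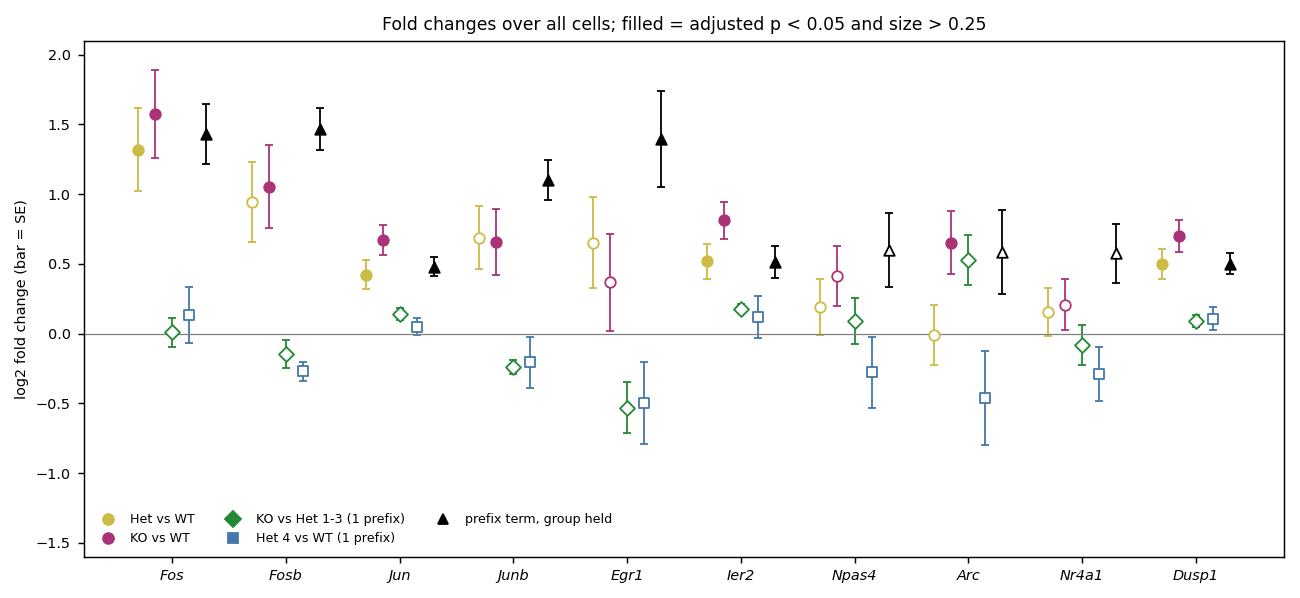
Log2 fold change of each gene over all cells for 5 comparisons, with the SE as bars; filled symbols passed an adjusted p under 0.05 and a size over 0.25. For Fos, Het against WT, KO against WT and the prefix term lie at 1.32, 1.58 and 1.43, while KO against Het replicates 1 to 3 and Het replicate 4 against WT lie at 0.01 and 0.13.

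The share of cells with at least 1 UMI was taken after thinning each cell to 5000 UMIs. With so few UMIs per cell this share also rises when every cell holds more transcript, so it does not tell more positive cells from more transcript per cell. This left out 13.9% to 20.6% of the cells of embryos of the WT prefix and 5.78% to 11.8% of those of the KO prefix. Fos was found in 11% to 12.2% of WT cells, in 26.0%, 29.9%, 26.6% and 14.1% of cells of Het replicates 1 to 4, and in 26.7%, 29.9% and 35.8% of KO cells. Before thinning the group means were 20.6%, 40.1% and 51.1%. Erythroid-like cells of WT embryos, as a class that should lack the gene, gave 1.09% ± 0.637 after thinning and 2.03% before, at a median of 9273 UMIs per cell beside embryo medians of 10795 to 17078 UMIs over all cells. Every embryo's share over all cells stood above it.

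Jun was found in 32.2% ± 1.84 of WT, 38.8% ± 3.61 of Het and 44.8% ± 0.532 of KO cells after thinning, against 2.93% ± 0.906 of erythroid-like WT cells. Ier2 was found in 10.1% ± 1.03, 13.1% ± 1.19 and 16.7% ± 1.41, and Dusp1 in 12.7% to 14.1% of WT, 17.8% ± 1.89 of Het and 21.2% ± 1.7 of KO cells. Junb was found in 4.10% ± 0.345, 6.47% ± 1.37 and 6.47% ± 0.258, Fosb in 9.43% ± 0.324, 15.3% ± 4.95 and 17.3% ± 2.35, and Egr1 in 3.15% ± 0.407, 4.86% ± 1.38 and 4.66% ± 0.954. Arc was found in 0.212% ± 0.0452 of WT and 0.402% ± 0.0975 of KO cells. For these 7 genes and Fos, each KO embryo lay above each WT embryo, which gives p = 0.1 in a two-sided exact permutation test, the smallest p that 3 against 3 embryos allow. In a second thinning, drawn over all genes, this held for 9 of the 10 members and for 18.2% of all 17647 genes. Het against WT gave an exact p of 0.0571 for Fos, Ier2 and Dusp1, 0.0857 for Jun and Junb and 0.143 for Fosb and Egr1, where the smallest possible is 0.0286. Npas4 was found in 0.728% ± 0.146 of WT and 0.878% ± 0.164 of KO cells (exact p = 0.4) and Nr4a1 in 0.636% ± 0.0534 and 0.760% ± 0.0769 (exact p = 0.2). Het replicate 4 lay above every WT embryo for Fos, Ier2 (11.8% against at most 11.3%) and Dusp1 (15.15% against at most 14.1%). It lay inside the WT range for Jun, Junb and Egr1, and below every WT embryo for Fosb, Arc, Npas4 and Nr4a1.

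Detection of the other members was also counted in cells with and without Fos. At 5000 UMIs per cell, Fosb was found in 18.9% ± 3.84 of the Fos-positive and 8.66% ± 0.125 of the Fos-negative layer II-IV-like cells of WT embryos, higher among Fos-positive cells in 3 of 3 embryos. In KO embryos the same shares were 25.4% ± 2.43 and 12.4% ± 2.16, again in 3 of 3. Jun was found in 40.2% ± 7.68 of Fos-positive and 31.4% ± 2.79 of Fos-negative WT cells of this class. Among WT layer V-VI-like neurons the shares with Jun were 40.6% ± 9.86 and 21.2% ± 1.1, and with Dusp1 20.3% ± 5.69 and 10.2% ± 1.90, each higher among Fos-positive cells in 3 of 3 embryos. In WT layer II-IV-like cells Dusp1 was also higher among Fos-positive cells in 3 of 3 embryos, and Ier2 in 2 of 3. The 619 Fos-positive WT cells of this class held 19 cells with Junb, 11 with Egr1, 6 with Npas4, 2 with Nr4a1 and 1 with Arc, too few to compare with Fos-negative cells at this depth. No difference between members was tested.

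Cells without any member UMI were also counted. In layer II-IV-like cells with 5000 UMIs, 41.8%, 48.1% and 44.3% of WT cells had no UMI of any of the 10 genes, against 31.1%, 31.4% and 31.8% in Het replicates 1 to 3, 42.4% in Het replicate 4 and 28.4%, 25.2% and 22.9% in KO. In radial glia-like cells 7.83% to 12.7% of WT cells had none of the 10, against 13.4% in Het replicate 4, 4.51%, 5.93% and 4.07% in Het replicates 1 to 3 and 5.41% to 7.18% in KO. There Het replicate 4 lay above every WT embryo, and Het replicates 1 to 3 overlapped KO at its lower end. In the other 2 classes counted, Het replicate 4 lay between WT and the remaining mutant embryos. In layer V-VI-like cells it had 42.0%, against 49.8% to 56.3% in WT, 34.1% to 37.3% in Het replicates 1 to 3 and 26.6% to 28.1% in KO. In interneuron-like cells it had 42.6%, against 47.15% to 51.5%, 25.6% to 32.8% and 26.8% to 30.4%.

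By class, 83 pairs of a member and a class passed the filter on low counts over 11 classes, from 10 members in layer II-IV-like cells to Jun alone in erythroid-like cells. In these comparisons CPM were TMM-scaled within each class. Het against WT called 13 of 83 pairs, all higher, where 1.41% of all gene and class pairs were called and 0.652% were higher. These were 5 in layer V-VI-like (1.22% of all genes called), 3 in layer II-IV-like (6.24%) and 3 in striatal inhibitory-like cells (2.35%). Cajal-Retzius-like (0.152%) and subventricular zone-like cells (0.42%) had 1 each. KO against WT called 34, all higher, where 14.1% were called and 6.91% were higher. The share of all genes called in KO ran from 0.286% to 29.9% over the classes, so each class is given beside its own. KO against Het, with Het replicate 4 of the WT prefix among the Het embryos, called 6, all higher, where 3.53% were called. In layer V-VI-like cells these were Fos, Jun, Ier2 and Dusp1 of 9 members (9.39% of all genes called). In layer II-IV-like cells they were Ier2 and Dusp1 of 10 (11.3%), a count near that share. Without Het replicate 4 the Het against WT count was 49, where 4.88% of all pairs were called, and without WT replicate 3 it was 5, where 0.519% were called.

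In layer V-VI-like neurons, the corticofugal and subplate-type cells of the deep cortical plate, all 9 members tested rose in KO against WT, where 23.7% of all genes in this class were called and 11.6% rose. Jun stood at 68.8, 70.8 and 61.6 CPM in WT, 113, 104, 111 and 87.2 CPM in Het replicates 1 to 4 and 163, 167 and 142 CPM in KO. The 3 groups were fully separate, and Het replicate 4 lay between WT and the other Het embryos. The log2 fold change was 0.62 in Het and 1.23 in KO (SE 0.09, adjusted p = 4.82e-07). Fos had 2.22 in KO (SE 0.24, adjusted p = 1.48e-05), Fosb 1.39 (SE 0.27), Egr1 1.32 (SE 0.34), Ier2 1.06 (SE 0.09), Npas4 1.04 (SE 0.27), Junb 0.82 (SE 0.14), Dusp1 0.73 (SE 0.08) and Nr4a1 0.67 (SE 0.24). Npas4 was called in no other class. In Het, Fos (1.49), Fosb (1.18), Jun, Dusp1 (0.45) and Ier2 (0.42) passed, 5 of 9 beside 1.22% of all genes. With the library prefix as a covariate, none of these 5 was called. Het against WT then called 0.344% of all gene and class pairs, a share at which the lost calls say nothing about the members.

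In layer II-IV-like neurons, the later-born callosal type, 8 of 10 members rose in KO, where 29.9% of all genes were called and 14.7% rose. Fos went from 23.0, 17.9 and 16.2 CPM in WT to 62.6, 69.7 and 91.8 CPM in KO, with Het replicates 1 to 3 at 56.1, 66.5 and 57.4 CPM and Het replicate 4 at 25.2 CPM. Het replicate 4 lay just above the WT embryos and far below the rest. In KO the log2 fold change was 1.97 (SE 0.26, adjusted p = 4.88e-05). Egr1 (0.97), Fosb (0.97), Ier2 (0.87), Dusp1 (0.72), Jun (0.65), Nr4a1 (0.57) and Junb (0.54) also passed, while Npas4 (0.16, SE 0.23) and Arc (1.15, SE 0.57) did not. The mixture within this class moved as well: cluster 0, led by Inhba, held 49.8% to 53.1% of its cells in WT and 31.6% to 39.0% in KO, and its part in these values was not tested beyond the single clusters given further on.

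Among inhibitory cells, 6 of 9 members rose in striatal inhibitory-like cells in KO (Fos 1.96, Fosb 1.53, Ier2 1.18, Dusp1 0.85, Junb 0.81 and Jun 0.58) and 4 of 9 in interneuron-like cells (Fos 1.78, Ier2 1.17, Dusp1 0.87 and Jun 0.46). Over all genes 16.6% were called and 8.08% rose in the first class, and 9.12% and 4.46% in the second. Fos in interneuron-like cells stood at 50.1, 36.4 and 39.7 CPM in WT, 125, 176, 118 and 46.6 CPM in Het and 124, 138 and 169 CPM in KO. Het replicate 4 lay inside the WT range. In Cajal-Retzius-like cells, the earliest neurons of the cortical surface, Fos (1.40), Dusp1 (0.76) and Jun (0.46) of 7 members rose in KO, where 5.43% of all genes were called and 2.77% rose. There Het replicate 4 lay above every WT embryo, with Fos at 42.7 CPM and Dusp1 at 37.5 CPM against 15.45 to 27.5 and 20.4 to 26.4 CPM in WT.

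In subventricular zone-like cells, which hold the intermediate progenitors, 4 of 7 members rose in KO, where 14.8% of all genes were called and 7.21% rose. Fos stood at 54.2, 50.3 and 62.0 CPM in WT, 177, 243, 203 and 37.0 CPM in Het and 175, 182 and 209 CPM in KO, with a log2 fold change of 1.77 (SE 0.39, adjusted p = 0.00433). Ier2 (0.88), Dusp1 (0.81) and Jun (0.69) also passed. Het replicate 4 was the lowest embryo for Fos.

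No member passed in radial glia-like, ganglionic eminence-like, microglia-like, pericyte and fibroblast-like or erythroid-like cells in KO against WT. These classes gave 32 tests, of which 16 had an unadjusted p under 0.05. Radial glia-like cells had 3 of 9 members (3940 of 11799 genes) and ganglionic eminence-like cells 2 of 7 (2370 of 11079), near the shares of all genes. Microglia-like cells had 4 of 7 (868 of 4268), pericyte and fibroblast-like cells 7 of 8 (1184 of 9442) and erythroid-like cells 0 of 1 (578 of 2397). Over all genes 19.4% were called in radial glia-like and 10% in erythroid-like cells, but only 4.02% in ganglionic eminence-like, 1.52% in microglia-like and 0.286% in pericyte and fibroblast-like cells. A count of 0 among 7 or 8 members says nothing about the members in those last 3 classes, nor does 1 member tested in erythroid-like cells. The log2 fold changes of Fos were 0.67 (SE 0.29), 0.86 (SE 0.31), 1.32 (SE 0.44) and 1.43 (SE 0.48) in the first 4 of these classes. Fos in microglia-like cells stood at 951, 440 and 723 CPM in WT, 2598, 1664, 1903 and 674 CPM in Het and 2340, 938 and 1987 CPM in KO. Its KO embryos overlapped WT and rested on 21 to 26 cells each. In radial glia-like cells Egr1 had -0.71 (SE 0.38) and Junb -0.74 (SE 0.38) in KO, and neither passed.

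**Figure D4:**
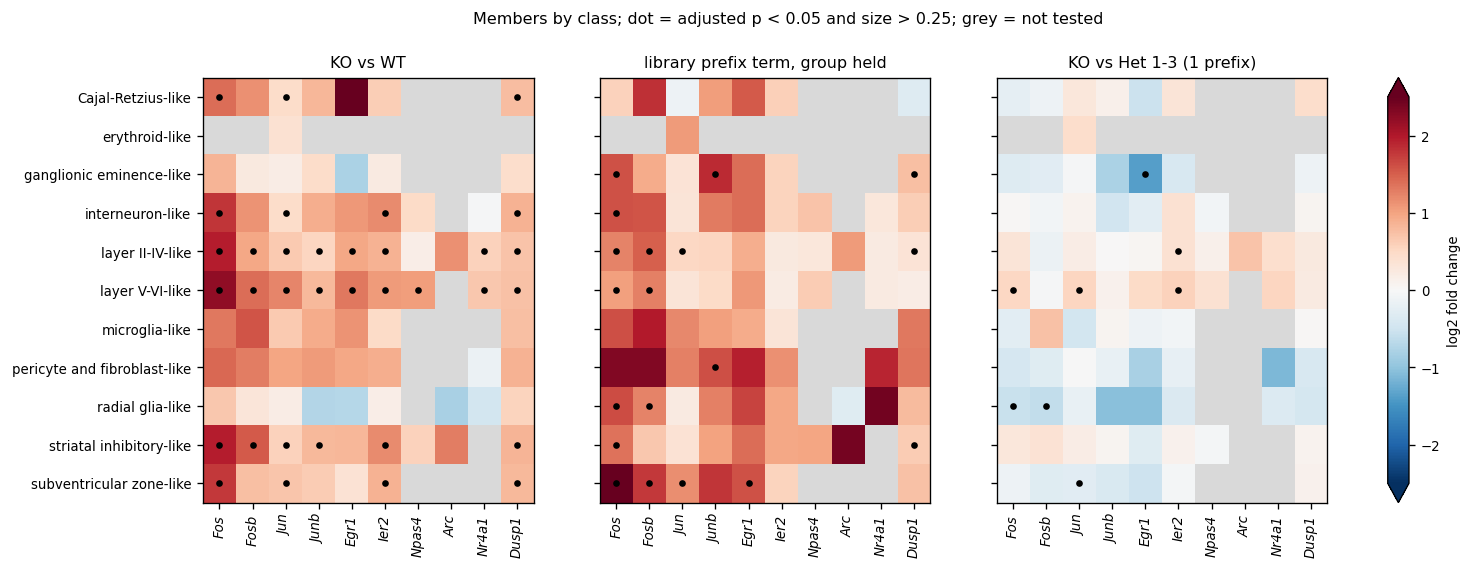
Log2 fold change of each gene in each class for KO against WT, for the prefix term with group held and for KO against Het replicates 1 to 3 (colour, cut at 2.5 in either direction); a dot marks an adjusted p under 0.05 with a size over 0.25, and grey a pair that was not tested. KO against WT has 34 dots, the prefix term 19 and KO against Het replicates 1 to 3 has 8, of which 4 are negative.

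The prefix term by class called 19 of 83 pairs, all higher under the KO prefix, where 0.854% of all gene and class pairs were called. Fos was called in 7 classes, with log2 differences from 1.02 in layer V-VI-like to 2.48 in subventricular zone-like cells (SE 0.20 and 0.16). Fosb was called in 4 (layer II-IV-like, layer V-VI-like, radial glia-like and subventricular zone-like, 1.23 to 1.76) and Dusp1 in 3 (0.35 to 0.75). Jun was called in subventricular zone-like (1.16) and layer II-IV-like cells (0.51), Junb in ganglionic eminence-like (1.86) and pericyte and fibroblast-like cells (1.61), and Egr1 in subventricular zone-like cells (1.58). Ier2, Npas4, Arc and Nr4a1 were called in none. As over all cells, each of these differences sets Het replicates 1 to 3 against the 1 library of Het replicate 4.

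Within the KO prefix, KO against Het replicates 1 to 3 called 8 of 80 pairs, where 4.09% of all gene and class pairs were called. In layer V-VI-like neurons 3 of 9 members rose, beside 10.5% of all genes called there: Ier2 (log2 fold change 0.58, SE 0.07, adjusted p = 9.14e-05), Jun (0.53, SE 0.06, adjusted p = 5.62e-05) and Fos (0.52, SE 0.12, adjusted p = 0.00853). In layer II-IV-like neurons Ier2 rose (0.38, SE 0.08, adjusted p = 0.00391), 1 of 10 members beside 12.2% of all genes called, a share near the background. These 4 were called when any 1 of the 6 embryos was left out, with Jun at 0.49 to 0.60 and Ier2 in layer V-VI-like cells at 0.53 to 0.67. Ier2 in layer V-VI-like cells stood at 26.0, 28.1 and 26.4 CPM in Het replicates 1 to 3 and at 35.8, 43.7 and 41.8 CPM in KO, without overlap, with Het replicate 4 at 23.2 CPM and WT at 21.2, 17.8 and 18.9 CPM.

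The other 4 pairs fell, all in progenitor classes, where 0.158% of all genes were called in ganglionic eminence-like, 2.75% in radial glia-like and 3.22% in subventricular zone-like cells. Egr1 fell in ganglionic eminence-like cells, at 140, 186 and 155 CPM in Het replicates 1 to 3 and 48.6, 38.6 and 95.5 CPM in KO (log2 fold change -1.38, SE 0.22, adjusted p = 0.0211), with Het replicate 4 at 60.4 CPM and WT from 62.1 to 160 CPM. Fos (-0.56, SE 0.14, adjusted p = 0.0452) and Fosb (-0.61, SE 0.16, adjusted p = 0.0428) fell in radial glia-like cells, and Jun in subventricular zone-like cells (-0.28, SE 0.07, adjusted p = 0.0456). Each of these calls was lost on leaving out any 1 of several embryos, while its fold change stayed negative in all 6 fits. Egr1 lost its call without Het replicate 2, without Het replicate 3 or without KO replicate 1 (range over the 6 fits -1.87 to -1.15). The others lost theirs without Het replicate 2, Het replicate 3, KO replicate 1 or KO replicate 2, with ranges of -0.73 to -0.43, -0.78 to -0.43 and -0.34 to -0.22.

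**Figure D5:**
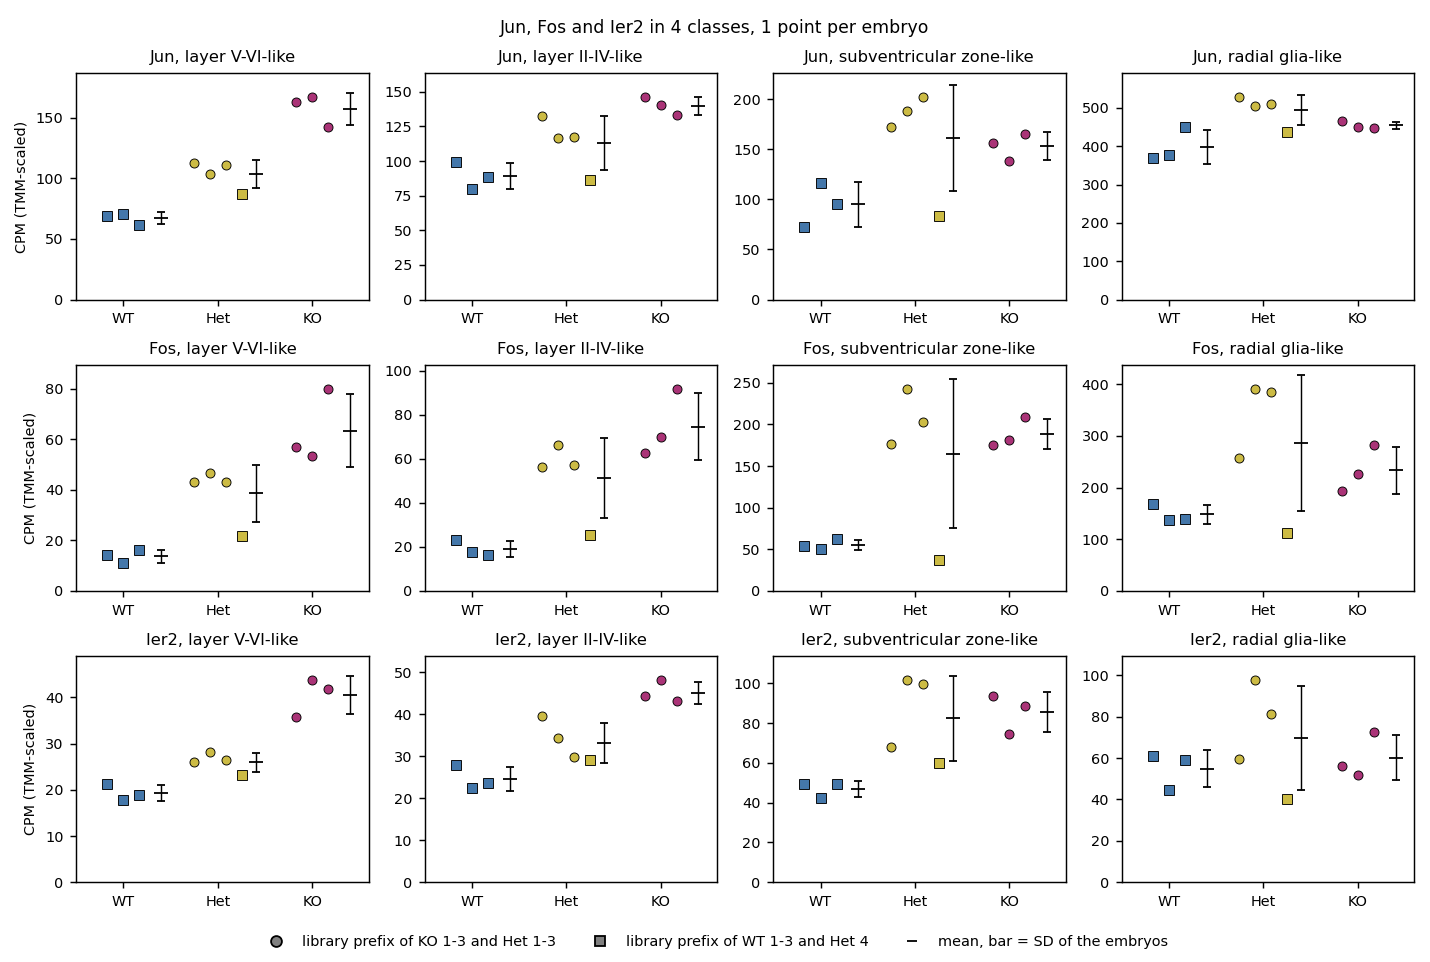
Jun, Fos and Ier2 in 4 classes in every embryo, as TMM-scaled CPM. Each point is 1 embryo, squares are the WT prefix and circles the KO prefix, and the bar is the mean ± SD. In layer V-VI-like cells Jun rises from 61.6 to 70.8 CPM in WT through 104 to 113 CPM in Het replicates 1 to 3 to 142 to 167 CPM in KO. In radial glia-like cells Fos lies at 258 to 391 CPM in Het replicates 1 to 3 and at 193 to 283 CPM in KO.

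Whether an effect differed between classes was tested on the difference between classes within each embryo, with limma over all genes of both classes. For KO against WT, the effect in layer II-IV-like cells was smaller than in layer V-VI-like cells for Npas4 (difference of log2 fold changes -0.84, SE 0.22, adjusted p = 0.0147), Jun (-0.58, SE 0.08, adjusted p = 1.73e-04) and Fosb (-0.43, SE 0.08, adjusted p = 0.00204), where 15.7% of all genes differed. Between layer II-IV-like and interneuron-like cells 0 members differed, against 7.22% of all genes.

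The same test within the KO prefix was added after the data had been seen, on classes picked for their values, so it describes those classes. KO against Het replicates 1 to 3 was larger for Jun in layer V-VI-like than in layer II-IV-like cells by 0.34 (SE 0.05, adjusted p = 5.71e-04, 8.27% of all genes). Against subventricular zone-like cells the layer V-VI-like effect was larger by 0.81 for Jun, 0.64 for Ier2 and 0.63 for Fos (4.32% of all genes). Against radial glia-like cells it was larger by 1.05 for Fos, 0.97 for Ier2, 0.71 for Jun and 0.58 for Fosb (2.92% of all genes).

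The layer V-VI-like class held 3 clusters, whose shares differed between embryos. Cluster 6, led by Fezf2 and Ldb2, held 32.6%, 26.2% and 28.4% of the class in Het replicates 1 to 3 and 33.6%, 36.0% and 37.8% in KO, without overlap, and 25.7% to 35.5% in WT. Cluster 5, led by Hs3st4 and Tle4, held 36.9% to 40.1% in Het replicates 1 to 3 and 31.3% to 37.6% in KO. Cluster 7, led by Crym and Grp, held 23.2% to 40.4% of the class in WT, 27.3% to 36.9% in Het replicates 1 to 3 and 28.7% to 30.9% in KO. The mixture of the class therefore moved between the groups compared within the prefix, and its part in the value over the whole class was not tested beyond the single clusters. Jun against Het replicates 1 to 3 was higher in KO by 0.87 in cluster 6 (SE 0.11), by 0.83 in cluster 5 and by 0.11 in cluster 7 (SE 0.08, adjusted p = 0.518). In cluster 5 it stood at 50.2, 44.5 and 35.5 CPM in WT, 85.4, 78.0, 81.2 and 65.9 CPM in Het and 141, 150 and 142 CPM in KO, fully separate groups. In cluster 6 it stood at 58.4, 51.0 and 34.9 CPM in WT, 110, 70.5, 97.9 and 98.6 CPM in Het and 178, 183 and 153 CPM in KO. Here Het replicate 4 lay with the other Het embryos and above WT. In cluster 7 it stood at 107, 116 and 92.7 CPM in WT, 142, 143, 144 and 96.2 CPM in Het and 168, 164 and 132 CPM in KO, with Het replicate 4 among the WT embryos. Of the 6 clusters of both layer classes, Jun was called within the prefix in clusters 0, 5, 6 and 11 and not in 1 or 7. Over these 6 clusters 8.56% of all gene and cluster pairs were called within the prefix and 22.5% in KO against WT.

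With the prefix as a covariate, KO against WT called 9 pairs, 7 of them among the 34 called without it, where 4.12% of all gene and class pairs were called. Het against WT called 0 of 83, where 0.344% of all pairs were called, so none of the 13 pairs called without the covariate was called with it. At an unadjusted p under 0.05 were 13 of the 83, a count for which no share over all pairs is given here. The 7 were Jun, Fos, Ier2 and Dusp1 in layer V-VI-like cells and Fos, Ier2 and Dusp1 in layer II-IV-like cells. The other 2 fell: Egr1 in radial glia-like cells and Fosb in subventricular zone-like cells. All 9 rest on Het replicate 4 as the link between the prefixes.

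Related genes were read over all cells in 5 lists beside the 10. Each count in KO against WT stands beside the 24.5% of all genes that were called there, 12% of all genes being higher, and each count of the prefix term beside 3.48% called. Counts of KO against Het replicates 1 to 3, within the KO prefix, stand beside 6.14% called. Of 35 other immediate early and early response genes tested, 16 rose and 3 fell in KO against WT, and 7 were higher and 0 lower in the prefix term. Within the KO prefix 3 rose (Ier3 0.56, Gadd45b 0.43 and Ier5 0.40) and 5 fell (Nr4a2 -0.81, Myc -0.70, Fosl2 -0.45, Cebpd -0.41 and Plk2 -0.27). Ier5 went from 110 ± 4.09 CPM in WT to 173 ± 8.36 CPM in KO, Btg2, an antiproliferative gene, from 42.6 ± 3.10 to 69.1 ± 5 CPM, and Jund, the constitutive AP-1 subunit, from 450.0 ± 19.4 to 684 ± 38.8 CPM. Plk2, a kinase of synaptic downscaling, fell from 117 ± 5.79 to 89.7 ± 1.74 CPM. Het replicate 4 had Ier5 at 137, Btg2 at 52.2 and Jund at 515 CPM, between WT and KO. The 7 genes of the prefix term were Klf4 (1.23), Klf2 (1.29), Cebpd (0.93), Fosl2 (0.55), Cebpb (1.05), Gadd45b (0.65) and Trib1 (0.40).

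Of 13 delayed genes that neurons switch on after activity, 4 rose and 1 fell in KO, none passed in Het and none in the prefix term, with a median log2 fold change of -0.25 in KO, beside 24.5% of all genes called in KO. Nptx1 (0.69), Nefm (0.58) and Nrn1 (0.30) rose and Inhba (-0.60) fell. Within the KO prefix 2 rose, Nefm (0.51) and Nptx1 (0.49), and 0 fell. Of 12 feedback inhibitors of the MAP kinase pathway, 1 rose (Dusp6, 0.58) and 4 fell in KO, among them Spred2 (-0.50), Spred3 (-0.45) and Spred1 (-0.39), while the prefix term called Spry2 (1.17) and Spry4 (1.07) higher under the KO prefix. Within that prefix 0 rose and 4 fell in KO, namely Spry4 (-0.998), Spry2 (-0.37), Spred1 (-0.31) and Spred2 (-0.25). Of 17 upstream factors of these promoters, 0 rose and 2 fell in KO, Mef2c (-0.78) and Crtc1 (-0.32), and none passed in the prefix term, while Mef2c alone fell within the KO prefix (-0.33). Srf (0.21, adjusted p = 0.0402) and Creb1 (0.15, adjusted p = 0.0170) passed the adjusted p in KO but not the size of 0.25.

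Heat shock genes, which warm digestion is also known to raise, were set beside the members. Of 12, 4 rose and 0 fell in KO against WT, where 12% of all genes rose, none passed in Het, and Hspa1a (1.05) and Hspa1b (1.36) were higher under the KO prefix with group held. Within the KO prefix edgeR called 0 of the 12, with 1 at an unadjusted p under 0.05. Hspa1b stood at 0.57 ± 0.132 CPM in WT, 1.25 ± 0.469 CPM in Het, with replicate 4 at 0.576 CPM, and 2.00 ± 0.135 CPM in KO. Hspa1a stood at 1.26 ± 0.280, 2.13 ± 0.658 (replicate 4 at 1.18) and 2.83 ± 0.226 CPM. These are near-identical copies of one gene, so reads may be split between them. Hsph1 (0.28) and Hspa8 (0.28) also rose in KO, and Hspa8 was at 1711 CPM in Het replicate 4 against 1570 ± 46.6 CPM in WT and 1908 ± 121 CPM in KO. The part of handling in the members' values was not tested.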

How the data were processed

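One 10X Genomics 3′ library (v3 chemistry) was made per embryo from E16.5 cortex. The authors aligned reads to mm10 with Cell Ranger and deposited, per library, a gene by barcode matrix of UMI counts. The matrix headers and the submitters' processing notes name version 6.0.2, another release than the methods name. The study's filter (no fewer than 1000 UMIs, no more than 10% of them mitochondrial) left 65779 barcodes, a total that differs from those the study states. The gene set, the related lists and the layout of the tests were chosen with earlier results of these data known.

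Cells were integrated and clustered with Seurat 5.3.0 (RPCA, 30 components, resolution 0.4, 25 clusters). The 2000 variable genes left out the members, related lists, Gatad2b, sex, haemoglobin and ribosomal RNA genes. A name from the marker lists needed a score of 0.5 with at least 3 markers detected. Of the names that qualified, the one with most markers among the cluster's 10 leading genes was taken, and then the highest score. A cluster stayed unnamed where its leading genes held more markers of other names, or where it was shallow and they held none. Doublets stayed in. Scrublet's own threshold marked under 0.5% in 8 embryos, so an alternative removed the top 4.12% to 6.48% of each embryo by doublet score. UMI counts were summed per embryo and class (at least 20 cells in each embryo, 11 classes) and tested with edgeR 4.0.16 (filterByExpr, TMM, quasi-likelihood F-test, all 10 embryos in 1 fit, Benjamini-Hochberg over all genes of a fit). A call needed both an adjusted p below 0.05 and a log2 fold change beyond 0.25 in either direction. Levels in WT by class are CPM without TMM. Differences between classes used limma 3.58.1 on log2 CPM with a prior count of 2. Shares came from cells thinned to 5000 UMIs and were tested by exact permutation of embryos, with raw p for 10 members in each of 3 comparisons. Embryos are separate animals. Intervals and limits cover counting error only. On simulated counts for KO against WT over all cells (17647 genes), the test recovered 47.5% of genes changed by 0.5 and 74% of those changed by 1 on the log2 scale. All members are named over all cells, and in a class those past both thresholds. In Het against WT only those of layer V-VI-like cells are named, and the other classes are given as counts. From each related list up to 4 genes are named, those with the smallest p in KO against WT among those called. The genes of the prefix term, the listed genes called within the KO prefix, Srf and Creb1 were named after their values were seen. DESeq2 1.42.0, other filters, the prefix and leaving out each embryo were alternatives. The comparison of Het replicate 4 with WT, the prefix term, the single clusters, the differences between classes within a prefix and the thinning over all genes were added after the data had been seen.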

Additional observations from a re-analysis of the deposited data

Results flagged for a closer look

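Het replicate 4 stood far from the other 3 Het embryos in 3 of 20 groups of 4 tested by Dixon's criterion. Chance flags about 1 in 20 independent groups. These groups were the members, each by CPM and by thinned share, in the same 4 embryos, so they are not independent and that rate does not apply. The 3 flagged were Dusp1 at 31.0 CPM and Ier2 at 28.7 CPM over all cells, and Junb, found in 4.44% of its cells after thinning. This embryo is the 1 Het library under the WT prefix.

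The KO against WT effect differed between layer II-IV-like and layer V-VI-like neurons (limma on the difference, 10 embryos) for Npas4 by -0.84, for Jun by -0.58 and for Fosb by -0.43 on the log2 scale, larger in layer V-VI-like cells each time. In that test 15.7% of all genes differed. The differences between KO and Het replicates 1 to 3 were taken on classes picked after their values were seen, so they only describe those classes. The effect in layer V-VI-like cells exceeded that in layer II-IV-like cells by 0.34 for Jun (8.27% of all genes differed). It exceeded that in subventricular zone-like cells by 0.81 for Jun, 0.64 for Ier2 and 0.63 for Fos (4.32% of all genes). Against radial glia-like cells it was larger by 1.05 for Fos, 0.97 for Ier2, 0.71 for Jun and 0.58 for Fosb (2.92% of all genes).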

How the results depend on the processing

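Percentages in brackets are the shares of all genes, or of all gene and class pairs, called in the same fit. In Het against WT over all cells, 4 members were called (2.98%). The count was 0 with the prefix as a covariate (0.232%), with only the 2 groups fitted (0.914%) or with equal weight per class (0.051%). The replicate block gave 7 (10.5%). Leaving 1 embryo out gave 0 (0.414% to 1.76%), or 7 without Het replicate 4 (10.4%). In KO against WT the 7 (24.5%) became 0 with the prefix (8.31%) or equal weight (12.8%). Leaving 1 embryo out gave 4 (20.2% to 21.7%) to 7 (21.8% without WT replicate 1, 26.3% without Het replicate 4). Junb lost its call by DESeq2, without doublets and at 3000 UMIs per cell, Arc by DESeq2 and without the filter on low counts, and Ier2 in Het without doublets. KO against Het had 0 (5.5%), and 1 without Het replicate 1 (Arc, 6.02%). Of member and class pairs, the 13 of Het against WT (1.41%) became 20 by DESeq2 (1.72%), 50 with the block (5.22%) and 0 with the prefix (0.344%). They became 8 at 5% mitochondrial UMIs (1.06%) and 5 (0.519%) to 49 (4.88%) leaving 1 out. Without a filter on low counts they became 51 (2.13%). That fit held 213224 gene and class pairs in place of 114245, so its member pairs are no longer the same 83. The 34 of KO against WT (14.1%) became 60 without the filter (9.06%), 54 with the block (16.1%) and 9 with the prefix (4.12%). Leaving 1 out gave 24 (10.9%) to 51 (15.8%). The 6 of KO against Het (3.53%) became 18 without the filter (2.71%) and 3 (2.41%) to 8 (3.28%) leaving 1 out. The KO against WT differences between the 2 layer classes were called for 3 members, where 15.7% of all genes differed. Leaving 1 out gave 2 to 4 members, for which no share over all genes is given here.

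Log2 fold changes of Het against WT turned negative with the prefix, and for Het replicate 4 alone, for Fosb (-0.27 in both), Junb (-0.20), Nr4a1 (-0.29), Egr1 (-0.50) and Npas4 (-0.28). Arc turned positive with the block (0.13), at 5% mitochondrial UMIs (0.0938) and without doublets (0.0571), and ranged from -0.16 to 0.17 leaving 1 out. In KO against WT with the prefix, Fosb (-0.41), Junb (-0.44), Nr4a1 (-0.37), Egr1 (-1.03) and Npas4 (-0.19) turned negative. In KO against Het, Fosb turned to -0.15 with the block and -0.14 with the prefix or Het replicates 1 to 3 (-0.14 to 0.28 leaving 1 out), Nr4a1 to -0.0778, -0.0794 and -0.0799 under the same 3 settings and -0.0697 with equal weight (-0.0795 to 0.20), and Junb to 0.21 with equal weight (-0.24 to 0.0672). The cause was not tested.

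The replicate block holds Het replicate 4 alone in its block 4 and so leaves it out in effect. Over 9 pairs of embryos with the same number, deviations from the group means correlated at -0.19 to 0.13, with 1 pair over 0.1, so the numbers were not taken to pair embryos. Thinning to 3000 UMIs moved 5 of 10 shares of KO minus WT and 1 of 10 of KO minus Het by more than 1 SD. Depth limits Arc, Npas4 and Nr4a1 most.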
